A study of Arabidopsis thaliana with 6 samples.

Results

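The genes described are 52 loci of Arabidopsis thaliana that drive or restrain the plant cell cycle, in 9 classes: B-type, A-type and D-type cyclins, CDKA and CDKB kinases, KRP and SIM inhibitors, the WEE1 kinase, RBR1 with the E2F and DP factors, MYB3R factors, and the CCS52A and CDC20 activators of the anaphase-promoting complex. They were taken by locus identifier and gene family from a table of read counts of 32678 genes, in which all 52 had a row. After the filter on low counts 51 of them were among the 17720 genes tested, and the one left out was KRP1 (AT2G23430). RNA was sequenced in bulk from root meristems cut by hand from seedlings aged 5 days. The 3 libraries labelled papl1 papl2 came from a double mutant whose full label names the alleles papl1-1 and papl2, with cog1-6 and cdf4 as other names, and the 3 libraries labelled Col-0 came from the wild-type accession. Both genotypes were grown alike, on agar with MS salts and sucrose in long days, and neither carries a transgene in the labels. For each genotype the replicates sequenced were those with the best RNA quality, and nothing says whether they came from separate plates, so p-values measure only the spread between these samples.

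Cyclin-dependent kinases drive the cell cycle when bound to cyclins. In plants the D-type cyclins act with CDKA at the start of the cycle, where the kinase relieves RBR1, the plant retinoblastoma protein, from E2F and DP factors and so lets genes of DNA replication be transcribed. CDKB kinases and the B-type cyclins act from G2 to mitosis, and many of their genes are read from promoters that MYB3R factors bind. KRP and SIM-type proteins inhibit the kinases, and CCS52A and CDC20 proteins direct the anaphase-promoting complex to cyclins so that these are destroyed. In roots the cells leaving the meristem stop dividing and enter the endocycle, in which DNA is replicated without mitosis, and CCS52A1 is known in Arabidopsis as a promoter of that switch.

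The libraries labelled papl1 papl2 held 17849704 to 20621826 counts and those labelled Col-0 held 19322466 to 20914576 counts. A count of 3, taken as the floor of detection, was worth 0.143 to 0.168 CPM (counts scaled to the size of the library), for counting error only. At the loci taken as the mutated ones, COG1 (AT1G29160) had 21.8, 20.24 and 16.5 CPM in papl1 papl2 against 12.6, 10.9 and 11.0 CPM in Col-0. CDF4 (AT2G34140) had 5.50, 6.26 and 6.20 CPM in papl1 papl2 against 3.64, 4.56 and 3.86 CPM in Col-0. Transcripts of both mutated loci were thus higher in every library labelled as the mutant, with log2 fold changes of 0.76 (SE 0.12, adjusted p = 0.0137) and 0.57 (SE 0.15, adjusted p = 0.0952). An adjusted p under 0.05 was reached in 10 of 13 alternative settings for COG1 and in 0 for CDF4. The labels set no direction for these loci, so the values do not test the labels. Counts over a whole locus do not show whether its protein is made, and the genotype names used below stand for libraries so labelled. The root meristem genes PLT1, PLT2, SCR and SHR were found in all 6 libraries, at 20.4 CPM or more, while WOX5, a gene of the quiescent centre, lay between 0.105 and 0.950 CPM. Of 3 shoot markers, WUS had 0 counts in all of them, while STM had 4, 0 and 2 counts and RBCS1A 5, 0 and 2 counts in papl1 papl2 against 0 for both in every Col-0 library. The second principal component, with 30.7% of the variance, set papl1 papl2 replicate 3 (-34.2) apart from replicates 1 and 2 (28.0 and 17.7), and the summed level of 7 root hair markers was 16.8, 11.9 and 0.838 CPM in papl1 papl2 against 5.74, 6.10 and 5.14 CPM in Col-0.

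Transcripts of the core cell cycle genes differed little between the genotypes. By the quasi-likelihood test of edgeR, with a call set at an adjusted p under 0.05, 0 members were higher and 1 was lower in papl1 papl2, which is 1.96% of the 51 tested. Over all 17720 genes 489 were called, 2.76%, of which 396 (2.23%) were higher and 93 (0.525%) were lower. The member called was CCS52A1 (AT4G22910, listed by RefSeq as FZR2), on chromosome 4. DESeq2 also called CCS52A1 and no other member. At an unadjusted p under 0.05 there were 8 members of 51, against 15.9% of all genes: 3 inhibitors, and 1 each among the B-type cyclins, the D-type cyclins, the kinases, the RBR1, E2F and DP class and the CCS52A and CDC20 class. The 95% interval of the fold change lay wholly within 1.5-fold in either direction for 43 members (84.3%), against 72.5% of all genes, at a median SE of 0.10 on the log2 scale for both.

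**Figure D1:**
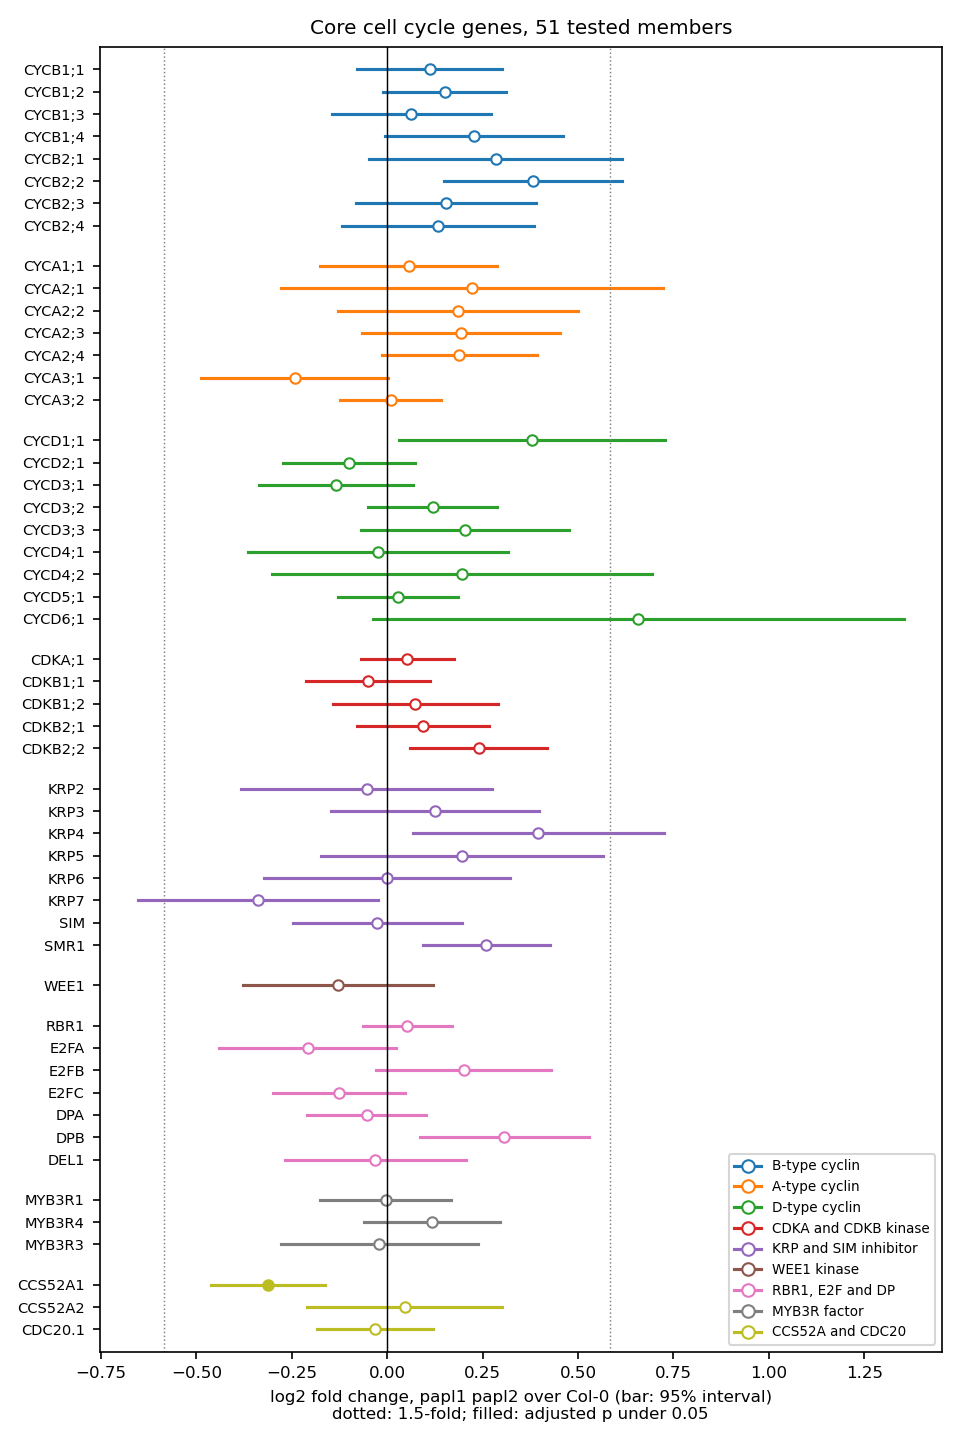
Log2 fold change of each of the 51 tested members, papl1 papl2 over Col-0, with its 95% interval, by class. The dotted lines mark 1.5-fold, and the filled point is CCS52A1 at -0.31, the one member with an adjusted p under 0.05.

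CCS52A1 had 51.1, 50.1 and 48.3 CPM in papl1 papl2 against 57.1, 64.3 and 64.2 CPM in Col-0, from 865 to 1348 reads a library. All 3 papl1 papl2 libraries lay below all 3 Col-0 libraries. The mean was 49.8 ± 1.403 CPM in papl1 papl2 and 61.9 ± 4.12 CPM in Col-0 (SD, n = 3 each), a log2 fold change of -0.31 (SE 0.07, 95% interval -0.46 to -0.16, adjusted p = 0.0413), or 0.805-fold. The direction was the same under all 13 other settings, with log2 fold changes of -0.37 to -0.29. The call was less steady and held in 6 of the 13. Of the 6 fits made without 1 library each, 5 gave an adjusted p of 0.0566 to 0.184, and the call held in the fit without papl1 papl2 replicate 3 (0.0255). The annotation places no other gene over this locus on the opposite strand, and none of its 50-base stretches occurs more than once in the genome.

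The other activators of the anaphase-promoting complex were not called. CCS52A2 (AT4G11920), a paralog known for its part in the root stem cell niche, had 8.76, 8.37 and 7.54 CPM in papl1 papl2 against 7.64, 8.23 and 8.05 CPM in Col-0. Its libraries overlapped, at a log2 fold change of 0.05 (SE 0.11, 95% interval -0.21 to 0.30, adjusted p = 0.891). In the annotation CCS52A2 overlaps another gene on the same strand, so its level and the ratio to it below may miss shared reads. CDC20.1 (AT4G33270), which directs the complex in mitosis, had 112, 122 and 132 CPM in papl1 papl2 against 124, 129 and 122 CPM in Col-0 (log2 fold change -0.03, SE 0.07, adjusted p = 0.871), and 33.2% of its 50-base stretches occur more than once in the genome. Per kb of exon, CCS52A1 stood 5.39, 5.52 and 5.92 times above CCS52A2 in papl1 papl2, against 6.91, 7.22 and 7.37 times in Col-0. That ratio of levels did not overlap between the genotypes. Against CDC20.1 the ratio of CCS52A1 per kb was 0.446, 0.403 and 0.358 in papl1 papl2 and 0.453, 0.489 and 0.516 in Col-0, lower in each mutant library. Both ratios largely restate the lower level of CCS52A1, as CCS52A2 and CDC20.1 were not called. They are not separate evidence of a difference.

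**Figure D2:**
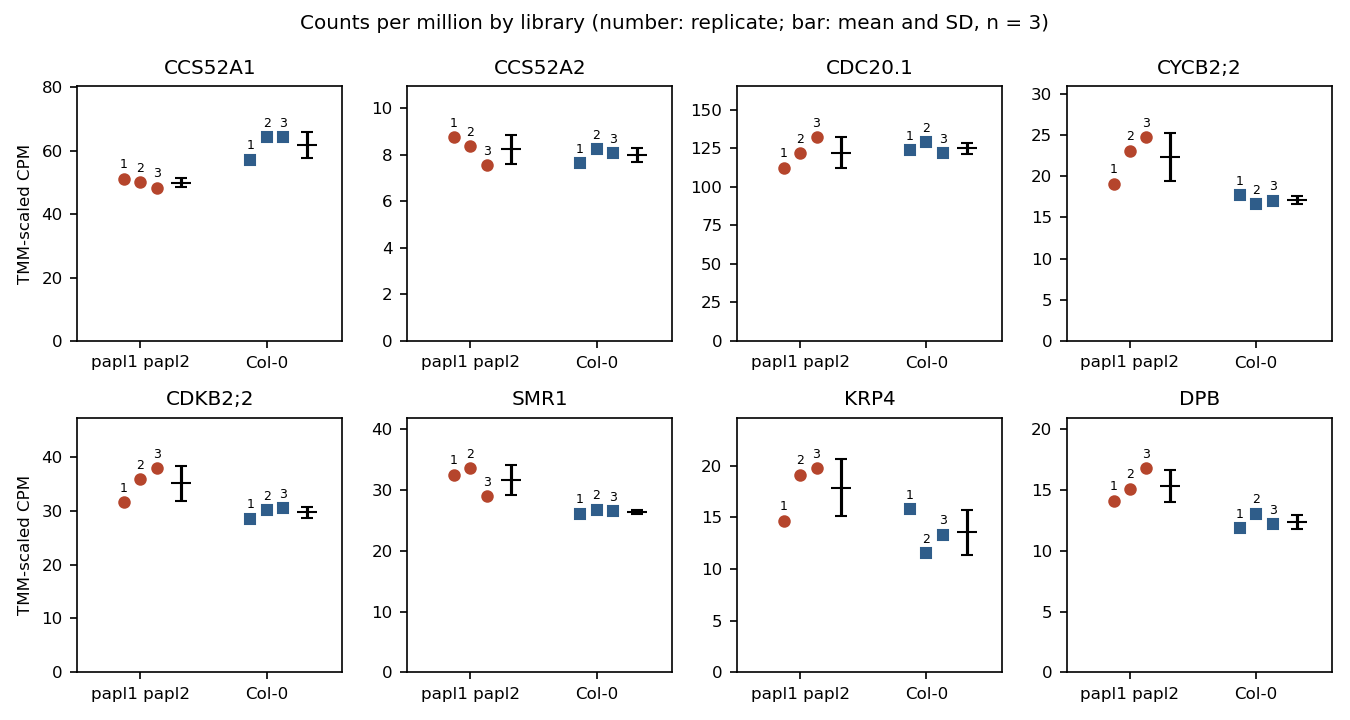
TMM-scaled CPM of 8 members in each library, papl1 papl2 at left and Col-0 at right, with the replicate number over each point and the mean and SD (n = 3) as a bar. CCS52A1 is below Col-0 in all 3 papl1 papl2 libraries, CCS52A2, CDC20.1 and KRP4 overlap, and the other 4 genes are higher in all 3 papl1 papl2 libraries without reaching an adjusted p of 0.05.

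Groups that did not overlap were about as frequent among the members as elsewhere. In 10 members (19.6%) the 3 libraries of one genotype all lay above the 3 of the other, against 21.5% of all genes. Of these, 7 were higher in papl1 papl2 (background 11.7%) and 3 were lower (background 9.8%). The 7 were CYCB2;2, CYCD1;1, CYCD6;1, CDKB2;2, SMR1, E2FB and DPB, and the 3 were CYCD3;1, E2FC and CCS52A1. Log2 fold changes were positive in 33 members and negative in 18, so 64.7% were positive against 50.8% of all genes. Their median was 0.07, against 0.00 over all genes, and the median size without its sign was 0.13 against 0.11. Single libraries set much of the first median, which was 0.14 without papl1 papl2 replicate 1, 0.04 without papl1 papl2 replicate 3 and 0.12 without Col-0 replicate 2.

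Promoters of B-type cyclins are shown because most of the class share a feature that the choice of members did not use. MYB3R factors bind the mitosis-specific activator element, whose core is AACGG, and this core was searched on both strands of the 250 bases before each annotated start (RefSeq annotation of TAIR10.1). Of 27443 protein-coding windows of that length, 20.6% held at least 1 copy and 3.62% held at least 2. Among the members 21 of 52 held at least 1 and 13 held at least 2. Of the 8 B-type cyclins 6 held at least 2. Each of these 6 held 3 or more, for which the share over all windows was not counted. The letters are given 5′ to 3′ on the coding strand, ending at the base before the start, with each copy of the core in capitals (AACGG, or CCGTT where it lies on the other strand). The windows of CYCB1;1 (chr4:17624309-17624558, minus strand), CYCB1;2 (chr5:1861704-1861953, minus strand) and CYCB2;2 (chr4:16901346-16901595, plus strand) hold 3, 4 and 3 copies, and that of CCS52A1 (chr4:12012158-12012407, plus strand) holds none.
CYCB1;1: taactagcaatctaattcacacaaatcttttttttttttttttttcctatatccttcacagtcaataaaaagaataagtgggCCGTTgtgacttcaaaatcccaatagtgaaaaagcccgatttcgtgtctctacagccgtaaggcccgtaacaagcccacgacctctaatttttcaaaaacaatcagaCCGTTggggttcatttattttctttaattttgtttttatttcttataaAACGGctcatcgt
CYCB1;2: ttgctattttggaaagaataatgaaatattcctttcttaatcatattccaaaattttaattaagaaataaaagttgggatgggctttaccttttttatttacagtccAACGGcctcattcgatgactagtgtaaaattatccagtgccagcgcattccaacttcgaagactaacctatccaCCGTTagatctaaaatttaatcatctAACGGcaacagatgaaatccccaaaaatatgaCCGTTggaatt
CYCB2;2: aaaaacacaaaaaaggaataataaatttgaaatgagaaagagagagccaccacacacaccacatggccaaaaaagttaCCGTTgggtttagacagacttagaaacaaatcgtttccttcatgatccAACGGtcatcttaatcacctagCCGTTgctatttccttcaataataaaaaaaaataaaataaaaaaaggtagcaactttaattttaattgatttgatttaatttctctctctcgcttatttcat
CCS52A1: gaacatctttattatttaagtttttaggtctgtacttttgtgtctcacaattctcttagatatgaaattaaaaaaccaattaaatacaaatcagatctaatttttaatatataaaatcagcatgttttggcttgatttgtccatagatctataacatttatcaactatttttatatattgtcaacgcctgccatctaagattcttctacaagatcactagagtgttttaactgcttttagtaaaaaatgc

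In the first window the copies begin 168, 61 and 13 bases before the start, in the second 143, 69, 43 and 11 bases before it, and in the third 172, 124 and 102 bases before it. The other B-type cyclins with 3 copies were CYCB1;3, CYCB2;1 and CYCB2;3, and the 2 with none were CYCB1;4 and CYCB2;4. Outside that class the core was found 6 times before KRP1 and 3 times before KRP7 (AT1G49620). Among the 5 CDKA and CDKB kinases 1 window held the core, and 0 held 2 or more copies. Of the E2F sites TTTCCCGC, TTTGGCGC and TTTCGCGC, none of which contains the MYB3R core, at least 1 lay on either strand of 1.13% of all windows, of 2 members (CYCD3;3 and RBR1) and of 10 of 24 listed DNA replication genes. A match is a run of letters and not a measured binding site.

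All 8 B-type cyclins, which carry CDK activity into mitosis, had a log2 fold change above 0, with a median of 0.15, and none was called. The direction of all 8 was the same with the other 2 scalings tried. These put the class median at 0.148 and 0.159, a shift too small to turn any of these signs. Without papl1 papl2 replicate 3, 6 of 8 were positive. CYCB2;2 (AT4G35620) had 19.1, 23.1 and 24.7 CPM in papl1 papl2 against 17.7, 16.6 and 17.0 CPM in Col-0. Every papl1 papl2 library lay above every Col-0 library, and replicate 1 was the closest to them. The mean was 22.3 ± 2.90 CPM in papl1 papl2 and 17.1 ± 0.525 CPM in Col-0 (SD, n = 3 each), a log2 fold change of 0.38 (SE 0.10, 95% interval 0.15 to 0.61, adjusted p = 0.0995). CYCB2;2 passed the threshold without papl1 papl2 replicate 1 (adjusted p = 0.0282) and when a root hair score was added to the model (0.0339), and in none of the other 11 settings.

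The smallest difference in this class was in CYCB1;3 (AT3G11520), with 35.1, 33.3 and 40.3 CPM in papl1 papl2 against 31.9, 38.0 and 34.1 CPM in Col-0. Its libraries overlapped (log2 fold change 0.06, SE 0.09, 95% interval -0.15 to 0.27, adjusted p = 0.806). CYCB1;1 (AT4G37490), the cyclin most used as a marker of cells at G2 and M, had 34.4, 37.8 and 42.8 CPM in papl1 papl2 against 34.3, 36.0 and 36.1 CPM in Col-0. Its replicate 1 in papl1 papl2 was at the level of Col-0, and the log2 fold change was 0.11 (SE 0.08, adjusted p = 0.584). CYCB1;2 (AT5G06150) was the most abundant of the class per length, at 43.9 ± 3.49 CPM per kb in papl1 papl2 and 39.5 ± 1.85 CPM per kb in Col-0 (SD, n = 3 each), and 11.3% of its 50-base stretches occur more than once in the genome, as do 17.0% of those of CYCB2;3 (AT1G20610).

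Of the other members of the class, CYCB2;1 (AT2G17620) was the lowest per length, with 10.7, 9.04 and 13.2 CPM in papl1 papl2 against 8.801, 9.82 and 8.43 CPM in Col-0. Replicates 1 and 3 of papl1 papl2 lay above Col-0 and replicate 2 within it (log2 fold change 0.28, SE 0.15, adjusted p = 0.397). CYCB1;4 (AT2G26760) had 31.4, 35.3 and 40.8 CPM in papl1 papl2 against 30.8, 33.0 and 28.0 CPM in Col-0, where only the lowest mutant library met the Col-0 range (log2 fold change 0.23, SE 0.10, adjusted p = 0.326). CYCB2;3 and CYCB2;4 (AT1G76310) were at 0.15 and 0.13 on the log2 scale.

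One library carried much of the difference in the B-type cyclins. Papl1 papl2 replicate 3 was the highest of the 6 libraries for all 8 of them, for 25 of the 51 tested members (49.0%) and for 23.2% of all genes. The background shares for papl1 papl2 replicates 1 and 2 were 17.8% and 14.9%, and for Col-0 replicates 1 to 3 they were 15.9%, 11.7% and 16.5%. Summed over the class, the B-type cyclins had 276, 303 and 346 CPM in papl1 papl2 against 271, 289 and 266 CPM in Col-0. Without papl1 papl2 replicate 3 the median log2 fold change of the class was 0.06, with 6 of 8 positive, and without replicate 1 it was 0.25, with all 8 positive. That library also had the lowest summed level of the root hair markers. EXPA7, EXPA18, PRP3 and ADF8 had 0 counts in it, but EXPA7 and EXPA18 also had 0 in Col-0 replicate 3. PRP3 had 0 in Col-0 replicate 1, and ADF8 had 2 counts in each Col-0 library, under the floor of 3. In the sum of 5 xylem and endodermis markers papl1 papl2 replicate 3 was again the lowest. The sums were 19.6, 14.0 and 9.27 CPM in papl1 papl2 against 11.3, 13.9 and 13.9 CPM in Col-0, and 0 of the 5 were called. These genes are expressed in cells that have left the meristem. With a root hair score in the model the median log2 fold change of the B-type cyclins was 0.19, with all 8 positive. The part of such cells in the cyclin values was not tested. In bulk RNA fewer cells of a kind and less RNA in each of them cannot be told apart.

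**Figure D3:**
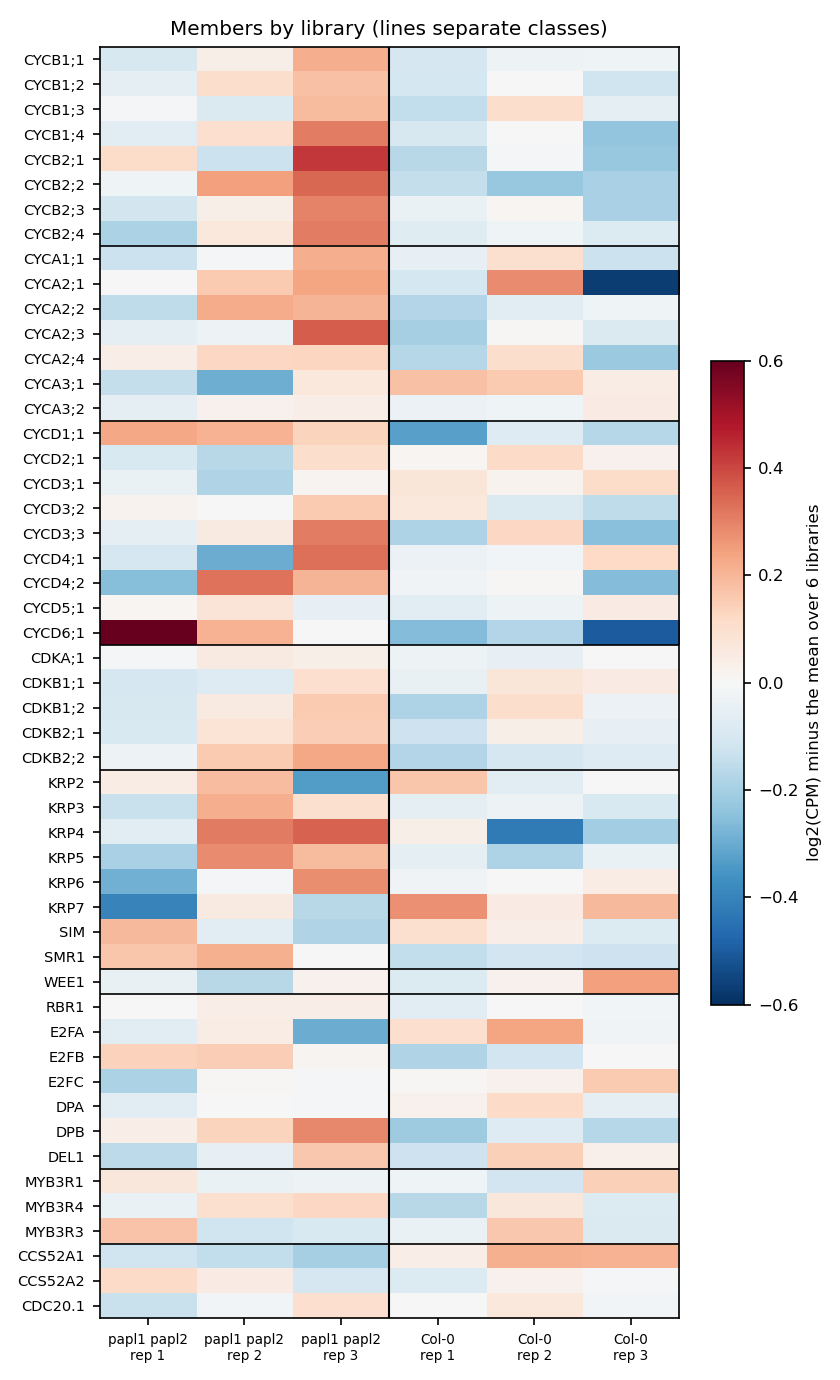
Log2 CPM of each tested member in each library, less its mean over the 6 libraries, with papl1 papl2 at left, Col-0 at right and lines between classes. Values past the ends of the colour scale take its end colour. The column of papl1 papl2 replicate 3 is the highest of its row in all 8 B-type cyclins.

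Of the 7 A-type cyclins, which act in S phase and G2, 6 had a log2 fold change above 0, with a median of 0.19, and none was called. That median was 0.12 without papl1 papl2 replicate 2, 0.04 without papl1 papl2 replicate 3 (4 of 7 positive) and 0.04 without Col-0 replicate 3. CYCA3;1 (AT5G43080), of the group linked to S phase, was the exception. It had 12.4, 11.2 and 14.4 CPM in papl1 papl2 against 15.5, 15.3 and 14.1 CPM in Col-0. Replicates 1 and 2 of papl1 papl2 lay below Col-0 and replicate 3 within it, for a log2 fold change of -0.24 (SE 0.11, 95% interval -0.49 to 0.00, adjusted p = 0.319). CYCA2;1 (AT5G25380) had the highest value of the class at 0.22 (SE 0.22, 95% interval -0.28 to 0.72, adjusted p = 0.697), from 4.02, 4.49 and 4.75 CPM in papl1 papl2 against 3.74, 4.91 and 2.71 CPM in Col-0. The libraries overlapped. CYCA2;3 (AT1G15570), which is part of the control of endocycle onset in Arabidopsis, had 33.2, 33.8 and 44.4 CPM in papl1 papl2 against 30.1, 34.6 and 32.5 CPM in Col-0 (adjusted p = 0.468). Of the rest, CYCA1;1 (AT1G44110), CYCA2;2 (AT5G11300), CYCA2;4 (AT1G80370) and CYCA3;2 (AT1G47210) had log2 fold changes of 0.06, 0.19, 0.19 and 0.01.

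The 9 D-type cyclins, which link the start of the cycle to sugar and hormone signals, had 6 positive and 3 negative log2 fold changes and a median of 0.12, and none was called. The median was 0.07 without papl1 papl2 replicate 3 or without Col-0 replicate 3, and 0.01 with 3 of 6 positive when only genes with a mean of at least 5 CPM were kept. CYCD1;1 (AT1G70210) had 4.74, 4.66 and 4.41 CPM in papl1 papl2 against 3.21, 3.82 and 3.57 CPM in Col-0. The genotypes did not overlap, at a log2 fold change of 0.38 (SE 0.15, 95% interval 0.03 to 0.73, adjusted p = 0.273). CYCD6;1 (AT4G03270), the cyclin of the division that separates cortex from endodermis, was the lowest of the tested members, with 15 to 35 reads a library. It had 1.67, 1.16 and 1.01 CPM in papl1 papl2 against 0.843, 0.893 and 0.714 CPM in Col-0, with no overlap. Its log2 fold change of 0.66 was the largest of the members and the least precise (SE 0.31, 95% interval -0.04 to 1.35, adjusted p = 0.343). CYCD3;1 (AT4G34160) had 14.4, 13.1 and 15.03 CPM in papl1 papl2 against 15.6, 15.1 and 16.1 CPM in Col-0, again without overlap but at a log2 fold change of -0.13 (SE 0.09, 95% interval -0.34 to 0.07, adjusted p = 0.520). The other D-type cyclins ran from -0.10 for CYCD2;1 (AT2G22490) to 0.20 for CYCD3;3 (AT3G50070). CYCD4;1 (AT5G65420) had 12.2, 10.6 and 16.4 CPM in papl1 papl2 against 12.7, 12.9 and 14.1 CPM in Col-0, so that the mutant libraries lay on both sides of Col-0 (log2 fold change -0.03, SE 0.15, adjusted p = 0.958). SHR and SCR, which act upstream of the D6 cyclin in the root, had log2 fold changes of -0.07 and -0.06 and were not called.

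Of the 5 kinases, 4 had a log2 fold change above 0, with a median of 0.07, and none was called. The median was 0.14 without papl1 papl2 replicate 1, 0.04 without papl1 papl2 replicate 3 and 0.13 without Col-0 replicate 2, with 4 of 5 positive each time. CDKA;1 (AT3G48750), the kinase that runs through the whole cycle, was among the steadiest members, with 61.5, 64.5 and 63.7 CPM in papl1 papl2 against 60.8, 60.0 and 62.1 CPM in Col-0. The log2 fold change was 0.05 (SE 0.05, 95% interval -0.07 to 0.17, adjusted p = 0.704). CDKB2;2 (AT1G20930), a mitotic kinase found only in plants, had 31.5, 35.9 and 37.8 CPM in papl1 papl2 against 28.5, 30.1 and 30.5 CPM in Col-0. Its genotypes did not overlap, and replicate 1 of papl1 papl2 was close to Col-0 (log2 fold change 0.24, SE 0.08, 95% interval 0.06 to 0.42, adjusted p = 0.184). CDKB1;1 (AT3G54180) had the lowest value of the class, -0.05 (SE 0.07, 95% interval -0.21 to 0.11, adjusted p = 0.802), from 43.6, 44.3 and 50.1 CPM in papl1 papl2 against 45.3, 49.1 and 48.3 CPM in Col-0. The values of CDKB1;2 (AT2G38620) and CDKB2;1 (AT1G76540) were 0.07 and 0.09. All 4 CDKB genes overlap a gene on the opposite strand in the annotation. So do 15 members in all, CYCD1;1, CYCD6;1, SMR1, SIM, KRP4, RBR1, E2FA, DEL1 and MYB3R1 among them, and without a stated use of strand in the counting such reads cannot be assigned to one of the genes. CYCD3;1 and CCS52A2 overlap a gene on the same strand, where reads in the shared part cannot be assigned either.

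**Figure D4:**
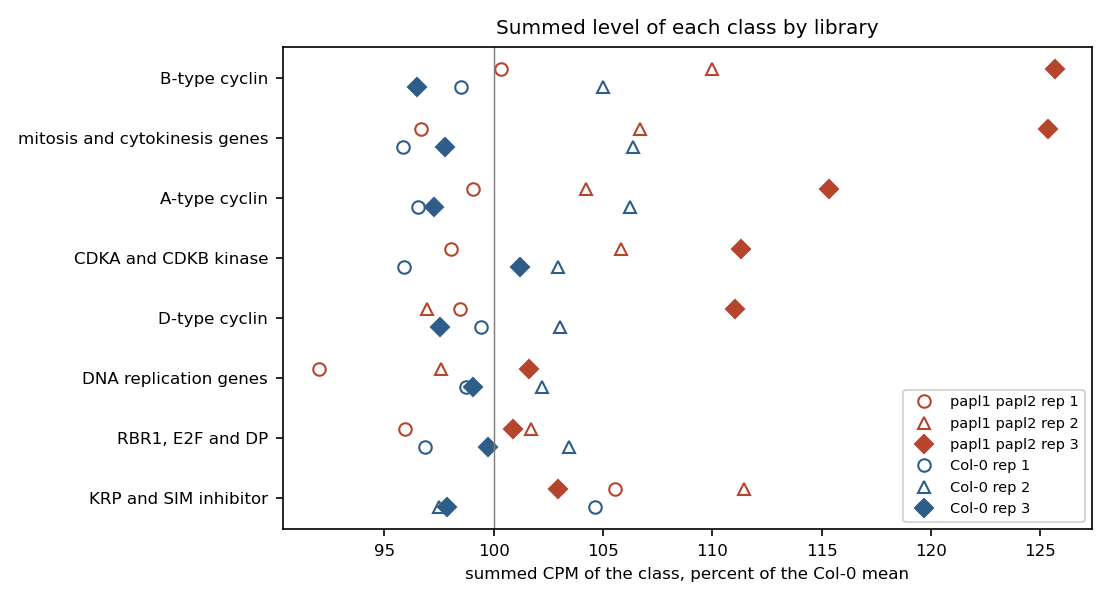
Summed CPM of each class or list in each library, as a percent of its Col-0 mean, with papl1 papl2 in red above Col-0 in blue. The filled red diamond, papl1 papl2 replicate 3, is the highest point for the B-type and A-type cyclins, the D-type cyclins, the kinases and the mitosis and cytokinesis genes.

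The kinase inhibitors had log2 fold changes of both signs, 4 positive and 4 negative among the 8 tested, and none was called. SMR1 (AT3G10525), also known as LGO and required for the endoreduplicated giant cells of the sepal, had 32.5, 33.5 and 28.9 CPM in papl1 papl2 against 26.1, 26.7 and 26.5 CPM in Col-0. Every papl1 papl2 library was higher, at a log2 fold change of 0.26 (SE 0.07, 95% interval 0.09 to 0.43, adjusted p = 0.116), and the gene passed the threshold without papl1 papl2 replicate 3 (0.0232), in 1 of 13 settings. SIM (AT5G04470), which blocks division in trichomes, had 43.8, 36.6 and 33.8 CPM in papl1 papl2 against 40.9, 39.3 and 36.2 CPM in Col-0 (log2 fold change -0.03, adjusted p = 0.934). The mutant libraries spread more widely, at an SD of 5.15 CPM in papl1 papl2 against 2.44 CPM in Col-0.

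KRP4 (AT2G32710) had the highest log2 fold change among the inhibitors, 0.40 (SE 0.15, 95% interval 0.07 to 0.72, adjusted p = 0.230), with 14.7, 19.1 and 19.7 CPM in papl1 papl2 against 15.8, 11.5 and 13.3 CPM in Col-0. Replicate 1 of papl1 papl2 lay within the Col-0 range of 11.5 to 15.8 CPM. KRP7 had the lowest, -0.34 (SE 0.14, 95% interval -0.65 to -0.02, adjusted p = 0.278), with 6.27, 8.59 and 7.37 CPM in papl1 papl2 against 10.01, 8.58 and 9.48 CPM in Col-0, and its libraries met at their edges. KRP2 (AT3G50630), KRP3 (AT5G48820) and KRP5 (AT3G24810) had log2 fold changes of -0.05, 0.12 and 0.20. KRP6 (AT3G19150) averaged 9.76 ± 1.90 CPM in papl1 papl2 and 9.74 ± 0.239 CPM in Col-0 (SD, n = 3 each). KRP1 was at or near the floor, with 2 to 8 reads a library and 0.383, 0.277 and 0.223 CPM in papl1 papl2 against 0.316, 0.0992 and 0.333 CPM in Col-0. WEE1 (AT1G02970), which inhibits CDKA when DNA replication is blocked, had 13.1, 12.0 and 13.7 CPM in papl1 papl2 against 12.7, 13.7 and 16.0 CPM in Col-0. Its libraries overlapped (log2 fold change -0.13, SE 0.11, 95% interval -0.38 to 0.12, adjusted p = 0.637).

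RBR1 (AT3G12280), the brake on entry into S phase, had 78.2, 80.3 and 80.5 CPM in papl1 papl2 against 74.7, 78.3 and 77.4 CPM in Col-0, a log2 fold change of 0.05 (SE 0.05, 95% interval -0.06 to 0.17, adjusted p = 0.692). With the E2F and DP factors the class had 3 positive and 4 negative values and no call. DPB (AT5G03415), a partner of E2F factors on DNA, had 14.1, 15.1 and 16.8 CPM in papl1 papl2 against 11.9, 13.0 and 12.2 CPM in Col-0. Its genotypes did not overlap (log2 fold change 0.31, SE 0.10, 95% interval 0.09 to 0.53, adjusted p = 0.162). E2FA (AT2G36010), an activator of replication genes, had the lowest value of the class, -0.21 (SE 0.10, 95% interval -0.44 to 0.02, adjusted p = 0.372), from 24.0, 25.8 and 20.4 CPM in papl1 papl2 against 26.9, 29.6 and 24.7 CPM in Col-0, which overlapped. E2FB (AT5G22220), which promotes division, had 11.2, 11.3 and 10.3 CPM in papl1 papl2 against 8.96, 9.37 and 10.1 CPM in Col-0, and E2FC (AT1G47870), a repressor of division, had 31.1, 35.5 and 35.3 CPM in papl1 papl2 against 35.6, 36.0 and 39.4 CPM in Col-0. Both were without overlap, the first higher in papl1 papl2 (adjusted p = 0.385) and the second lower (adjusted p = 0.484). DEL1 (AT3G48160), an atypical E2F that represses CCS52A2 in Arabidopsis, had 18.9, 20.5 and 23.6 CPM in papl1 papl2 against 19.4, 23.4 and 21.6 CPM in Col-0, a log2 fold change of -0.03 (SE 0.10, 95% interval -0.27 to 0.21, adjusted p = 0.922). DPA (AT5G02470) was at -0.05.

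The 3 MYB3R factors, which act on the core printed above, were not called. MYB3R4 (AT5G11510), an activator of G2 and M genes, had 37.4, 41.1 and 42.0 CPM in papl1 papl2 against 34.3, 40.3 and 36.4 CPM in Col-0 (log2 fold change 0.12, SE 0.08, 95% interval -0.06 to 0.30, adjusted p = 0.530). MYB3R3 (AT3G09370), a repressor of the same genes, had 14.9, 12.2 and 12.5 CPM in papl1 papl2 against 12.9, 14.8 and 12.5 CPM in Col-0 (log2 fold change -0.02, SE 0.11, 95% interval -0.28 to 0.24, adjusted p = 0.956). MYB3R1 (AT4G32730) averaged 67.5 ± 2.90 CPM in papl1 papl2 and 67.7 ± 6.30 CPM in Col-0 (SD, n = 3 each). All 3 overlapped between the genotypes.

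Set against each other per kb of exon, the members spanned a wide range of levels. In Col-0, CDC20.1 was the most abundant at 59.6 CPM per kb and SIM the next at 49.0, each beyond the spread of the gene below it. They were followed by CYCD2;1 at 42.5, CDKA;1 at 40.7 and CYCB1;2 at 39.5, whose Col-0 libraries overlapped from one neighbour to the next. CCS52A1 was at rank 10, at 23.3 ± 0.657 CPM per kb in papl1 papl2 and 29.0 ± 1.93 CPM per kb in Col-0, while CCS52A2 was at 4.17 ± 0.315 and 4.04 ± 0.153 CPM per kb (SD, n = 3 each). At the low end stood CYCD1;1 at 1.41, CYCD6;1 at 0.507 and KRP1 at 0.212 CPM per kb in Col-0, each below the gene before it.

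**Figure D5:**
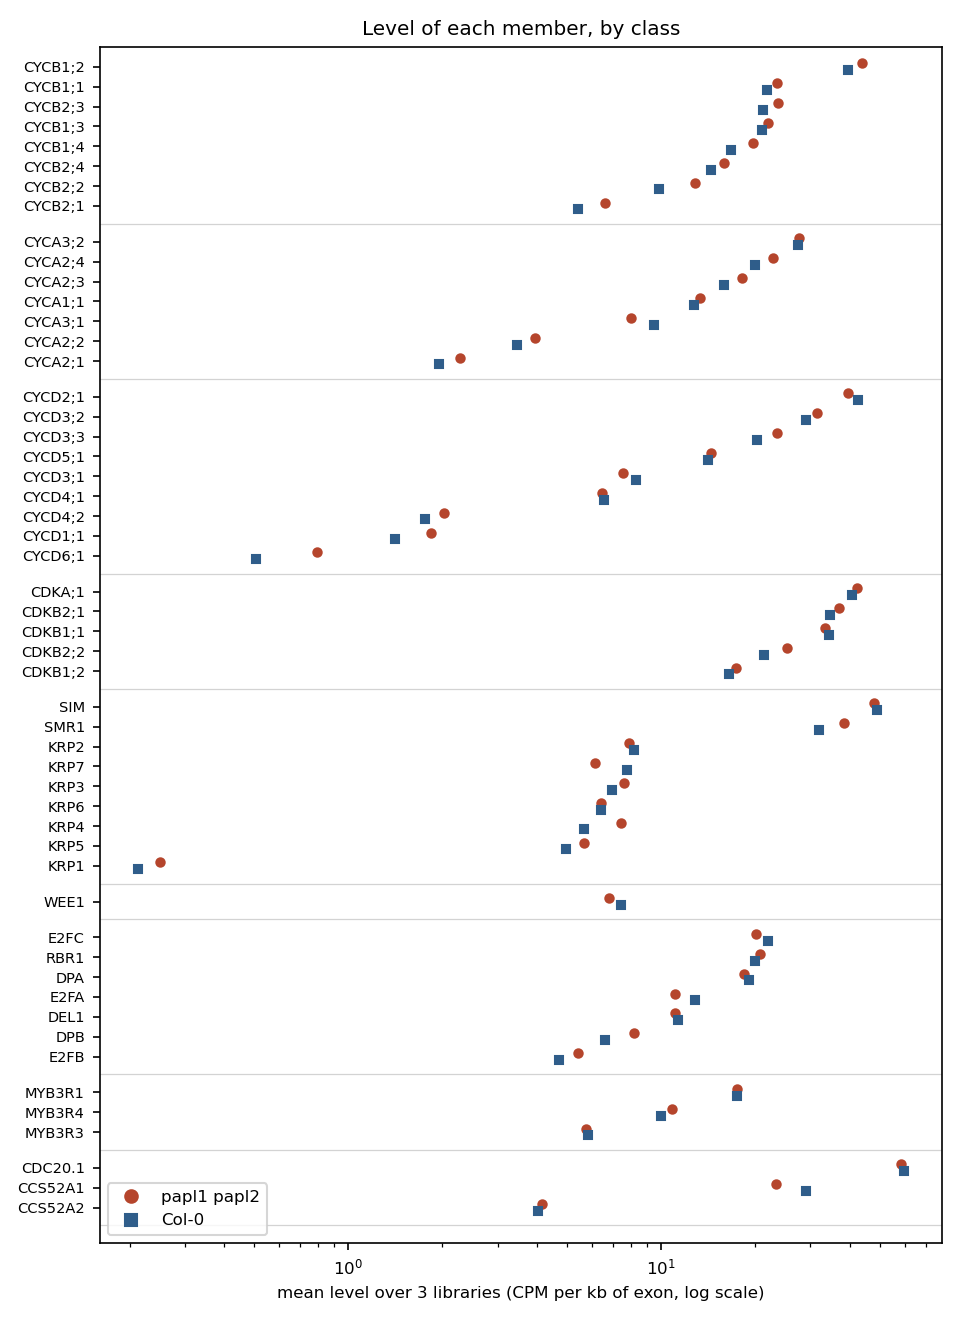
Mean level of each of the 52 members over 3 libraries in CPM per kb of exon, on a log axis, by class, for papl1 papl2 (circles) and Col-0 (squares). Levels run from 0.212 for KRP1 to 59.6 for CDC20.1 in Col-0, and CCS52A1 is at 23.3 in papl1 papl2 and 29.0 in Col-0.

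Genes around the core machinery were also followed from listed sets, and neither edgeR nor DESeq2 called any gene of the 5 lists described here. At an unadjusted p under 0.05 there was 1 of 18 tested other core cell cycle genes, 1 of 24 replication genes and 1 of 11 mitosis and cytokinesis genes. The rest of these 5 lists had 0, and the share over all genes was 15.9%. Of 18 other core cell cycle genes tested of 22 listed, 0 were called and the median log2 fold change was 0.03, or -0.03 without papl1 papl2 replicate 3. CCS52B (AT5G13840), the third CCS52 protein, had 60.9, 65.9 and 69.7 CPM in papl1 papl2 against 64.0, 66.5 and 59.0 CPM in Col-0, and UVI4 (AT2G42260), which inhibits the anaphase-promoting complex, had 11.0, 9.31 and 9.66 CPM in papl1 papl2 against 9.06, 10.02 and 9.24 CPM in Col-0. The smallest p-values in the list belonged to CYCA1;2 (AT1G77390), with 1.82, 3.38 and 1.73 CPM in papl1 papl2 against 1.32, 0.942 and 1.38 CPM in Col-0 (adjusted p = 0.212), and to MYB3R5 (adjusted p = 0.396). Of 9 further SIM-related inhibitors tested of 12 listed, 0 were called, with AT5G02420 at a log2 fold change of -0.17 (adjusted p = 0.520) and AT1G10690 at 0.32 (adjusted p = 0.484). Of 5 DNA damage response genes 0 were called, BRCA1 being at 0.08 (adjusted p = 0.665) and XRI1 at 0.07 (adjusted p = 0.778).

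Genes of DNA replication and of mitosis had small log2 fold changes throughout. Of 24 DNA replication genes 0 were called. All 24 intervals lay within 1.5-fold, against 72.5% of all genes, but at a smaller median SE of 0.075 against 0.102 over all genes. Log2 fold changes were above 0 in 8 genes and below it in 16, with a median of -0.03. The sign of that median turned without papl1 papl2 replicate 1, to 0.03 with 14 of 24 above 0, and it was -0.07 with 2 of 24 above 0 without papl1 papl2 replicate 3 and -0.05 without Col-0 replicate 1. PCNA1, the sliding clamp of DNA polymerase, had 84.2, 89.5 and 84.6 CPM in papl1 papl2 against 96.6, 96.4 and 91.6 CPM in Col-0, with no overlap (log2 fold change -0.14, SE 0.05, adjusted p = 0.255). TSO2, a subunit of ribonucleotide reductase, had 89.2, 90.4 and 96.0 CPM in papl1 papl2 against 102, 96.7 and 102 CPM in Col-0, also without overlap (log2 fold change -0.12, SE 0.06, adjusted p = 0.315). Of 11 mitosis and cytokinesis genes 0 were called, 10 were above 0 with a median of 0.12, and papl1 papl2 replicate 3 was the highest library for 10 of them. Without that library 6 of the 11 were above 0, with a median of 0.03. The median was 0.20 without papl1 papl2 replicate 1, 0.05 without Col-0 replicate 1 and 0.18 without Col-0 replicate 2. TPX2, a spindle assembly factor, had 32.6, 38.8 and 41.1 CPM in papl1 papl2 against 30.6, 34.3 and 31.5 CPM in Col-0 (log2 fold change 0.22, SE 0.09, adjusted p = 0.287), and EDE1, a microtubule-associated protein of mitosis, had 9.71, 11.4 and 9.89 CPM in papl1 papl2 against 8.96, 9.37 and 7.67 CPM in Col-0 (log2 fold change 0.25, SE 0.12, adjusted p = 0.352). The difference between the lists was not tested.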

How the data were processed

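The authors deposited 1 table of raw counts, with 1 column of whole reads per gene for each of the 6 libraries and no normalization, per the file headers. Per the submitters' processing notes TopHat2, HTSeq, DESeq, DESeq2 and the TAIR10 build were used, with no version or role given. The use of strand in counting is not given in the sources used here. RNA was enriched with oligo-dT and libraries were amplified by PCR, per the labels' protocols, so reads are not independent molecules.

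The analysis used edgeR 4.0.16 under R 4.3.3. The low-count filter was filterByExpr (minimum count 10, minimum total 15), libraries were scaled by TMM, and genotypes were compared over all 6 libraries with the quasi-likelihood F test and Benjamini-Hochberg adjustment over 17720 genes. CPM are TMM-scaled. The script was tested on simulated counts. Libraries of 1 genotype differed by more than sampling noise (chi-square over its degrees of freedom 4.10 to 15.6), so all 6 were kept as separate samples. Pairs with papl1 papl2 replicate 3 gave 15.6 and 9.31, and all other pairs gave 4.10 to 5.27. Alternatives were other scalings, DESeq2 1.42.0, other filters, a block for replicate number, a root hair score (mean log2 CPM of 5 markers) added to the model, and leaving out each library.

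Of the identifiers, 31912 matched RefSeq's TAIR10.1 annotation and 766 did not. It gives exon lengths, overlaps, the windows printed, and gene names as symbols, synonyms or products. The loci of COG1 and CDF4 are from general knowledge, where RefSeq lists Dof-type zinc finger proteins. Members and gene lists were chosen with earlier results of these data known. Members given with every library were those called, those with the smallest p, the highest or the lowest fold change in a class, and those without overlap at an unadjusted p under 0.05. Others, chosen after their values were seen, were added for their roles. From each other list the called genes, or else the 2 with the smallest p, were named. Of columns with values, 0 were unmatched.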

Additional observations from a re-analysis of the deposited data

How the results depend on the processing

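Over 13 alternatives, 471 of 497 log2 fold changes of named genes kept their direction and side of the threshold, and 9 changed sign: CYCB1;3 (-0.0216 to 0.131 with 1 library left out, below 0 without papl1 papl2 replicate 3), MYB3R3 (-0.121 to 0.0547, above 0 without papl1 papl2 replicates 2 or 3 or Col-0 replicate 2), CCS52A2 (-0.0035 to 0.1004, below 0 without papl1 papl2 replicate 1), XRI1 (-0.0133 to 0.117, below 0 without Col-0 replicate 3), XCP1 (-0.152 to 0.449, below 0 without papl1 papl2 replicate 1, and -0.114 with the root hair score in the model) and PRP3 (-2.12 with that score). None of these was called. The 489 genes called became 744 with DESeq2's Wald test and 144 to 1164 with 1 library left out, most without papl1 papl2 replicate 3 (1164) and fewer without papl1 papl2 replicate 2 (173) or Col-0 replicates 1, 2 and 3 (144, 276 and 155). The 1 member called became 0 with a filter at a mean of 5 CPM, 2 with the root hair score (CCS52A1 and CYCB2;2), and 0 to 2 with 1 library left out: 2 without papl1 papl2 replicate 3 (CCS52A1 and SMR1), 1 without papl1 papl2 replicate 1 (CYCB2;2) and 0 otherwise. CCS52A1 was at -0.31 with the 5 CPM filter (adjusted p = 0.0509), -0.31 with the replicate block (0.135), and -0.37 to -0.29 with 1 library left out. Root hair markers gained 1 call (RSL4) with DESeq2 and 1 without papl1 papl2 replicate 3, where root cap markers gained 2 (SMB at -0.37 and BRN2 at -0.46). The causes were not tested. The replicate numbers did not pair the libraries (correlations of same-numbered deviations -0.107 to -0.00913). A block for them left 259 genes, 245 of them shared with the 489, and 0 members. Depth limits KRP1 and CYCD6;1 most.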

Other observations

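Markers of root hair cells, which lie outside the dividing zone, varied widely between the mutant libraries. RSL4, a regulator of root hair growth, had 4.16, 3.22 and 0.279 CPM in papl1 papl2 against 0.738, 0.595 and 0.429 CPM in Col-0 (log2 fold change 2.13, SE 0.73, adjusted p = 0.194), high in 2 mutant libraries and lowest in the third, and PRP3, a wall protein of root hairs, had 1.196, 0.610 and 0 CPM in papl1 papl2 against 0, 0.595 and 0.0476 CPM in Col-0 (adjusted p = 0.584). Of 5 root hair markers tested 0 were called. In the root cap list all 3 log2 fold changes were below 0 and 0 were called. SMB, a regulator of lateral root cap fate, had 23.5, 22.0 and 28.4 CPM in papl1 papl2 against 28.6, 30.1 and 29.5 CPM in Col-0 without overlap (log2 fold change -0.26, SE 0.10, adjusted p = 0.232), and BRN2 had 14.5, 14.7 and 19.4 CPM in papl1 papl2 against 17.9, 20.3 and 22.1 CPM in Col-0 (log2 fold change -0.31, SE 0.13, adjusted p = 0.287).

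Among root meristem markers 0 of 5 were called, with 2 log2 fold changes above 0 and 3 below it and a median of -0.06. PLT1, which maintains the stem cell niche, had 37.7, 39.4 and 41.7 CPM in papl1 papl2 against 36.6, 37.0 and 35.2 CPM in Col-0, higher in all 3 mutant libraries (log2 fold change 0.13, SE 0.06, adjusted p = 0.384). WOX5 had a log2 fold change of 0.96 (SE 0.51, adjusted p = 0.410) at under 1 CPM in every library. The 3 below 0 were PLT2 at -0.12 (SE 0.09, adjusted p = 0.611), SHR at -0.07 (SE 0.06, adjusted p = 0.617) and SCR at -0.06 (SE 0.06, adjusted p = 0.715). Of the 3 xylem genes tested 0 were called. XCP1 was at 0.17 (SE 0.29, adjusted p = 0.838), IRX3 at 0.24 (SE 0.16, adjusted p = 0.518) and XCP2 at -0.11 (SE 0.36, adjusted p = 0.921).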
